A study of Mus musculus with 6 samples.

Results

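The Hox genes encode homeodomain transcription factors and lie in 4 clusters, HoxA to HoxD. Members were every gene whose symbol is Hoxa, Hoxb, Hoxc or Hoxd followed by a number, which gives 39 genes in the mouse annotation. A row was matched for 32 of them among the 22824 rows of each library. Hoxa3, Hoxa5, Hoxa6, Hoxb3, Hoxb5, Hoxc9 and Hoxd4 had no matching row and were not analysed here. The series holds 6 RNA-seq libraries from femurs of C57BL/6 mice, 3 labelled OE and 3 labelled Ctrl. The OE mice carried 9.6kb DMP1-Cre together with R26-Wnt7b, and per the labels all of them were homozygotes, without saying for which allele. The Ctrl mice were littermates with R26-Wnt7b and no Cre, so the Wnt7b allele was present in both groups and Cre only in OE. Dmp1 regulatory sequence is active in osteocytes and mature osteoblasts, and R26 is a locus used for broadly permissive transgene expression. No age or sex is given in the labels, and nothing there ties a library to a separate animal, so p-values measure the spread between these libraries, which may be technical in part.

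Each Hox cluster runs in paralogue order, and during development the genes at the low-numbered end are switched on earlier and closer to the head than those at the high-numbered end. In the limb, the high-numbered genes of HoxA and HoxD, with HoxC members in the hindlimb, pattern the skeleton along its length: paralogues 9 and 10 the upper segment, which includes the femur, paralogue 11 the middle segment, and paralogue 13 the hand or foot. Fibroblasts and skeletal stromal cells keep part of this positional code in the adult. In blood formation, HoxA genes around Hoxa9 and several HoxB genes such as Hoxb4 act in stem and progenitor cells and are switched off as cells mature.

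Values are FPKM, fragments scaled to transcript length and to the mapped fragments of the library, as the authors deposited them, so levels can be compared between genes per length. FPKM totals of the libraries ran from 596413 to 775942. Absolute depth is unknown. Relative depth, read from the step size of low values, was 1 to 1.18. Wnt7b, the gene to be overexpressed, stood at 2.49, 0.661 and 0.295 FPKM in OE 1, 2 and 3, at 0.909 in the library labelled Ctrl 1, at 0.00833 in Ctrl 2 and at 0 in Ctrl 3. For the targeted gene, the library labelled Ctrl 1 was therefore between OE 1 and OE 2, and every OE against Ctrl value below includes it on the Ctrl side unless stated. OE 3 also stood apart, with a summed level of the erythroid marker list of 1136 FPKM against 100.9 to 482 in the other libraries. The labels describe femurs free of cartilage and marrow cells. Col2a1, the main cartilage collagen, was nevertheless present at 8.82 to 263 FPKM, and S100a8, a neutrophil protein gene, at 23601 to 70049.

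Hox genes were weakly expressed, and a few of them made up most of the signal. The summed FPKM of the 32 members was 56.2, 39.7 and 30.8 in OE 1, 2 and 3, 46.4 from the library labelled Ctrl 1, and 26.9 and 24.9 from Ctrl 2 and Ctrl 3. Of the 32, 18 stayed below 1 FPKM in every library, and 2 of those were listed at 0 throughout. Of the members, 10 reached 1 FPKM in at least 3 libraries or 2 FPKM in any, and these are described with their values: Hoxa2, Hoxa7, Hoxa9, Hoxa10, Hoxb2, Hoxb4, Hoxc6, Hoxc8, Hoxc10 and Hoxd8. By mean level the order was Hoxa9 at 7.46, Hoxb4 at 6.14, Hoxb2 at 3.29, Hoxa10 at 2.75, Hoxa7 at 2.61, Hoxa2 at 2.51, Hoxc10 at 2.32, Hoxc6 at 1.94, Hoxc8 at 1.53 and Hoxd8 at 1.08 FPKM over the 6 libraries. The ranges over libraries overlapped for every pair of neighbours in this order. Compared within each library, Hoxa9 was above Hoxb4, Hoxb4 above Hoxb2, and Hoxc10 above Hoxc6 in 6 of 6 libraries. Hoxc6 was above Hoxc8, and Hoxc8 above Hoxd8, in 5 of 6, and the other neighbours kept their order in 3 or 4 of 6.

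**Figure D1:**
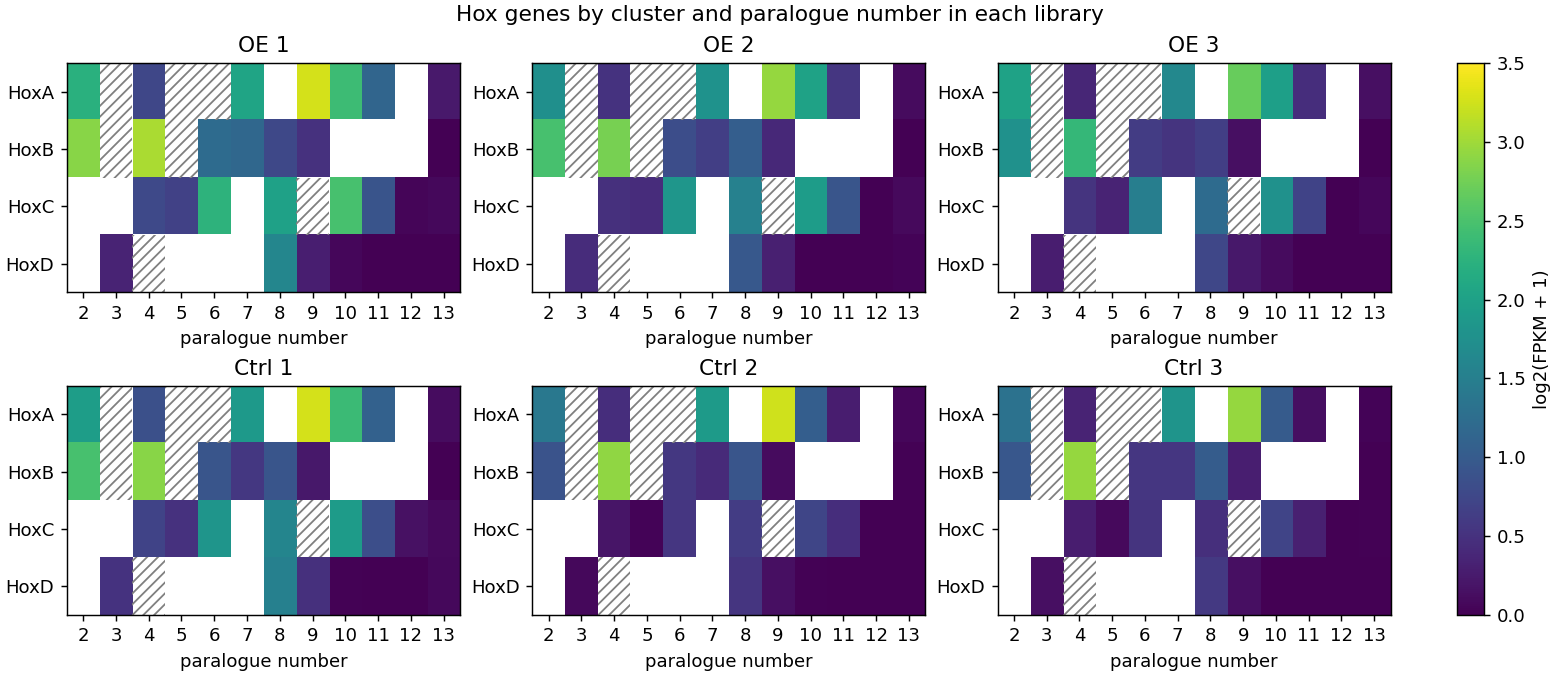
Level of each Hox gene as log2(FPKM + 1) (colour) by cluster (rows) and paralogue number from 2 to 13 (columns), 1 panel per library; hatched cells are members with no matching row and blank cells are positions where the mouse has no gene. Hoxa9 and Hoxb4 are bright in all 6 panels, the HoxC row is darker in Ctrl 2 and Ctrl 3 than in the other 4 panels, and paralogues 12 and 13 are dark throughout.

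Adjacent genes of the HoxA cluster showed unlike patterns over the libraries. Hoxa9 (ENSMUSG00000038227, GRCm38 chromosome 6, 52223100 to 52231089, minus strand) is a transcription factor of haematopoietic progenitors and also of the proximal limb. It stood at 8.68, 6.74 and 5.44 FPKM in OE 1, 2 and 3, at 8.66 from the library labelled Ctrl 1, and at 8.51 and 6.73 from Ctrl 2 and Ctrl 3. The groups overlapped, with an OE mean of 6.96 ± 1.63 FPKM and a Ctrl mean of 7.97 ± 1.07 (SD, n = 3 each), and the highest library was 1.6 times the lowest. Hoxa10 (ENSMUSG00000000938, chromosome 6, 52231197 to 52240854, minus strand) lies next to it in the cluster and is known for patterning the femur and for a role in osteoblasts and in blood progenitors. It stood at 4.26, 3.05 and 2.92 FPKM in OE, at 4.22 from the library labelled Ctrl 1, and at 1.06 and 1.01 from Ctrl 2 and Ctrl 3. Ctrl 2 and Ctrl 3 lay below all other libraries, and the highest library was 4.21 times the lowest. The ratio of Hoxa10 to Hoxa9 within a library, which does not depend on the scaling of the library, was 0.490, 0.452 and 0.536 in OE, 0.487 from the library labelled Ctrl 1, and 0.125 and 0.150 from Ctrl 2 and Ctrl 3. This pair of genes was singled out after its values were seen, so the ratio is a description.

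Upstream sequences are shown for the 5 of these 10 members that have a RefSeq window free of annotated exons, because they include both kinds of member: Hoxa9 and Hoxb4, with similar levels in all libraries, and Hoxa10, Hoxa2 and Hoxd8, which were low in Ctrl 2 and Ctrl 3. RefSeq windows (GRCm38.p6) matched 22 of the 39 Hox symbols. Each window holds the 250 bases before the annotated start, 5′ to 3′ on the gene's strand. Capitals mark matches to 4 motifs on either strand. The TATA box was searched as TATAAA and the CCAAT box by its name. The GC box was searched as GGGCGG, and TGATNNAT was used for a composite site of Hox and Pbx proteins. Of 32851 RefSeq windows of the same length, 12.4% hold the TATA box letters, 33.8% the CCAAT box, 32.7% the GC box and 7.68% the Hox-Pbx letters. The windows are chr6:52227371-52227620 for Hoxa9 and chr6:52234940-52235189 for Hoxa10, both on the minus strand and each within an intron of the longer annotated locus of its own gene, chr6:52164832-52165081 (minus strand) for Hoxa2, chr11:96318017-96318266 (plus strand) for Hoxb4 and chr2:74704365-74704614 (plus strand) for Hoxd8.
Hoxa9: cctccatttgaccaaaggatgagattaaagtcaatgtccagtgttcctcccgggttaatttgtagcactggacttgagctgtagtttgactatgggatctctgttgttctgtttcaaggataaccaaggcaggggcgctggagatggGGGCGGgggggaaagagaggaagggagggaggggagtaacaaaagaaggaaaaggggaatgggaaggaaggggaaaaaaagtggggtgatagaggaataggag
Hoxa10: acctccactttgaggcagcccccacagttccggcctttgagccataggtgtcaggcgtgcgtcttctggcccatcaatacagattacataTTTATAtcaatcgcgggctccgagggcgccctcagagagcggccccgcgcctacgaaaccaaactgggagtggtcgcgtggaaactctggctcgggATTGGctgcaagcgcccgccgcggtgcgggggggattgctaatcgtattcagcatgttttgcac
Hoxb4: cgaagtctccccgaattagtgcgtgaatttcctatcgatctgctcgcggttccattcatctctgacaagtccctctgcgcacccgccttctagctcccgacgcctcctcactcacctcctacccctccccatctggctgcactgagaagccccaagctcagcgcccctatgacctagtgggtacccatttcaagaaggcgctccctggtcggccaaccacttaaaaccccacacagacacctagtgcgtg
Hoxa2: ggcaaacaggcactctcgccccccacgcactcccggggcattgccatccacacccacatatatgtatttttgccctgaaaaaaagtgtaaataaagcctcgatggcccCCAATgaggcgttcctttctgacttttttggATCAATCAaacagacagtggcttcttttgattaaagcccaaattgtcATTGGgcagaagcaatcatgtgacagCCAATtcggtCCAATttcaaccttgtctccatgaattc
Hoxd8: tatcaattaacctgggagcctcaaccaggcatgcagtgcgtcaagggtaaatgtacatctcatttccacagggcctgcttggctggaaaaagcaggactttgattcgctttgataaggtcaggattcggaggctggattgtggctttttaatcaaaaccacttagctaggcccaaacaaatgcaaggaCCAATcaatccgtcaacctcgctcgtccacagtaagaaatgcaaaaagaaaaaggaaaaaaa
The Hoxa10 window held 20 CpG pairs with 59.2% G and C, 1 TATA box on the reverse strand and 1 CCAAT box. The other RefSeq start of Hoxa10, upstream of the whole locus, has an exon-free window too (chr6:52240855-52241104, not printed), with 7 CpG pairs, 51.6% G and C, 1 GC box and neither of those boxes. The Hoxa9 window held 3 CpG pairs with 49.6% G and C and 1 GC box. The Hoxa2 window held 4 CCAAT boxes and 1 Hox-Pbx match, the Hoxd8 window 1 CCAAT box, and the Hoxb4 window none of these letters. These are letter matches in short windows and are not evidence of binding.

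Of the other HoxA members, Hoxa7 varied little, like Hoxa9, while Hoxa2 and Hoxa11 were lowest in Ctrl 2 and Ctrl 3, like Hoxa10. Hoxa7, which is active in blood progenitors, stood at 3.12, 2.45 and 2.11 FPKM in OE, at 2.71 from the library labelled Ctrl 1, and at 2.76 and 2.52 from Ctrl 2 and Ctrl 3. Its groups overlapped, and its ratio to Hoxa9 stayed between 0.313 and 0.387 in the 6 libraries. Hoxa2, best known for patterning the hindbrain and the second pharyngeal arch and for restraining bone formation there, stood at 3.69, 2.34 and 3.06 FPKM in OE, at 2.85 from the library labelled Ctrl 1, and at 1.63 and 1.48 from Ctrl 2 and Ctrl 3. Ctrl 2 and Ctrl 3 were the lowest libraries for Hoxa2, though the range was narrower than for Hoxa10, at 2.48 times. Hoxa11, which patterns the middle limb segment, reached 1.21 FPKM in OE 1, with 1.13 in the library labelled Ctrl 1, stood at 0.464 and 0.379 in OE 2 and OE 3, and at 0.216 and 0.0984 in Ctrl 2 and Ctrl 3. Hoxa4 and Hoxa13 stayed below 1 FPKM in all libraries, at up to 0.811 and 0.177. Hoxa4 showed neither pattern. It stood at 0.669, 0.425 and 0.293 FPKM in OE, at 0.811 from the library labelled Ctrl 1, and at 0.380 and 0.279 from Ctrl 2 and Ctrl 3. Its highest library was 2.91 times the lowest.

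**Figure D2:**
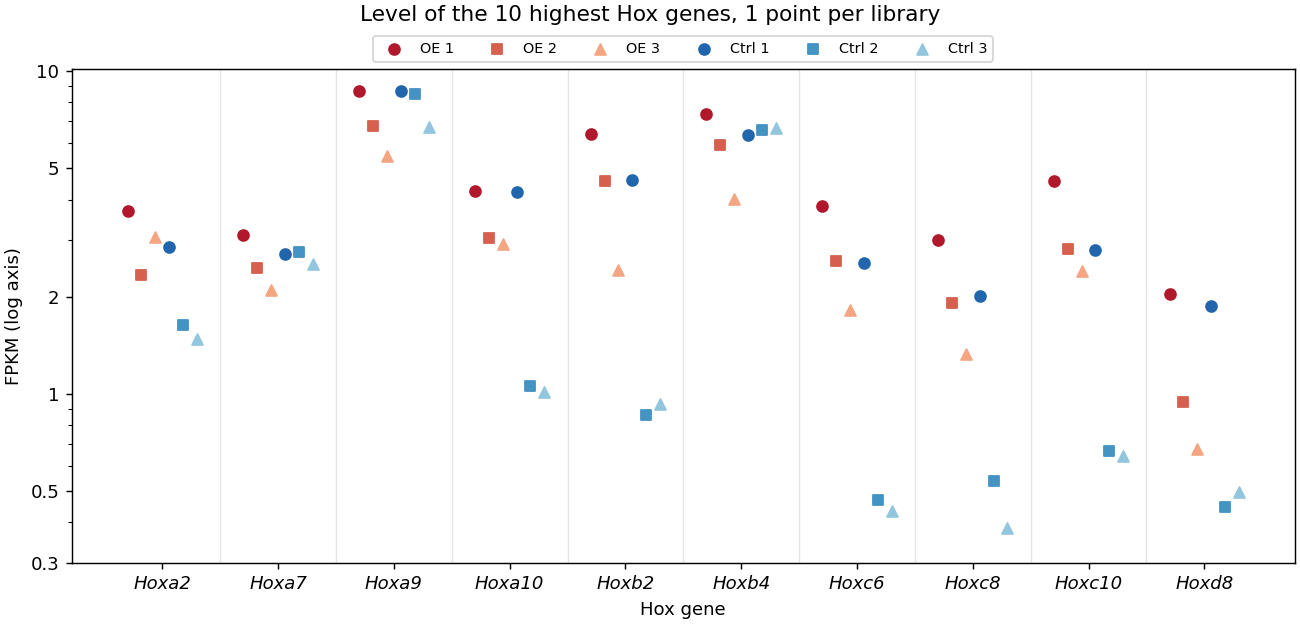
FPKM on a log axis for the 10 Hox genes with the highest mean level, 1 point per library, red shades for OE and blue shades for Ctrl. For Hoxa7, Hoxa9 and Hoxb4 the 6 points lie together, while for the other 7 genes Ctrl 2 and Ctrl 3 lie below the other 4 libraries.

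In the HoxB cluster, Hoxb4 and Hoxb2 parted. Hoxb4 (ENSMUSG00000038692, chromosome 11, 96318267 to 96321638, plus strand) is known for expanding haematopoietic stem cells when overexpressed. It stood at 7.35, 5.90 and 4.01 FPKM in OE, at 6.35 from the library labelled Ctrl 1, and at 6.55 and 6.69 from Ctrl 2 and Ctrl 3. OE 3 was lowest and OE 1 highest, so the OE libraries enclosed all Ctrl libraries. Hoxb2 (ENSMUSG00000075588, chromosome 11, 96350525 to 96354012, plus strand) is a hindbrain gene that is also transcribed in blood progenitors, and it stands in the blood-cell list. It stood at 6.38, 4.56 and 2.42 FPKM in OE, at 4.59 from the library labelled Ctrl 1, and at only 0.863 and 0.931 from Ctrl 2 and Ctrl 3. Its libraries therefore ordered like those of Hoxa10 and not like those of Hoxb4: the ratio of Hoxb2 to Hoxb4 was 0.868, 0.773 and 0.603 in OE, 0.722 from the library labelled Ctrl 1, and 0.132 and 0.139 from Ctrl 2 and Ctrl 3. Exons of Hoxb2 overlap those of the antisense transcript Hoxb3os, and the strand setting of the counting is not given in the sources used here, so reads of the 2 cannot be told apart. The same limit holds for Hoxa7, whose exons overlap the antisense transcript Hoxaas3, and for Hoxa11, with Hoxa11os. Hoxb8, a gene used to hold myeloid progenitors in an immature state in culture, stood at 0.692, 1.05 and 0.573 FPKM over OE and 0.900, 0.896 and 1.02 over Ctrl, again with overlapping groups. Hoxb6 and Hoxb7 reached 1.33 and 1.25 FPKM in OE 1 and stayed below 1 elsewhere, and Hoxb9 reached 0.407. Hoxb1, a hindbrain gene, was the 1 member with every OE value below every Ctrl value, at 0.0133, 0.0570 and 0.0127 FPKM over OE and 0.0623, 0.0842 and 0.0847 over Ctrl. Such a separation was seen in 6.56% of genes above 0 in any library. Those Hoxb1 values are 1, 4 and 1 steps for the OE libraries and 5, 6 and 7 steps for the Ctrl libraries. To find steps, the values of a gene were scaled by the relative depth of each library. A step is the largest unit of which all 6 are whole multiples (tolerance 0.05 of a step). A gene above 0 in only 1 library therefore holds 1 step by definition. Hoxb13 was above 0 in Ctrl 2 only, at 0.0132 FPKM, and was listed at 0 in the other libraries.

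In the HoxC cluster 7 of the 8 measured genes had their 2 lowest values in Ctrl 2 and Ctrl 3. Over all genes above 0 in any library the share was 17.7%. The summed FPKM of HoxC was 13.6, 9.02 and 6.94 in OE, 9.36 from the library labelled Ctrl 1, and 2.21 and 1.97 from Ctrl 2 and Ctrl 3. Of the summed FPKM of the 32 measured Hox genes, HoxC made up 22.5% to 24.3% in OE, 20.2% from the library labelled Ctrl 1, and 8.23% and 7.92% from Ctrl 2 and Ctrl 3. Hoxc10 (ENSMUSG00000022484, chromosome 15, 102966796 to 102971893, plus strand), a gene of the hindlimb and lumbar region, stood at 4.57, 2.82 and 2.40 FPKM in OE, at 2.79 from the library labelled Ctrl 1, and at 0.666 and 0.641 from Ctrl 2 and Ctrl 3. Hoxc6, a thoracic-level gene of the trunk, stood at 3.81, 2.58 and 1.81 FPKM in OE, at 2.54 from the library labelled Ctrl 1, and at 0.468 and 0.433 from Ctrl 2 and Ctrl 3. Hoxc8, which is active in trunk mesoderm and in cartilage, stood at 3.003, 1.91 and 1.33 FPKM in OE, at 2.01 from the library labelled Ctrl 1, and at 0.538 and 0.383 from Ctrl 2 and Ctrl 3. In these HoxC genes the library labelled Ctrl 1 lay within the OE range each time, and Ctrl 2 and Ctrl 3 lay below it. Hoxc11, the paralogue of Hoxa11, followed the same order below 1 FPKM, at 0.871, 0.894 and 0.636 in OE, 0.800 from the library labelled Ctrl 1, and 0.375 and 0.237 from Ctrl 2 and Ctrl 3. Hoxc4 and Hoxc5 reached 0.704 and 0.600 FPKM. The annotated exons of Hoxc5 and Hoxc10 overlap on the same strand, so how reads are divided between them is uncertain. Hoxc12 and Hoxc13 stayed at or below 0.114 FPKM.

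The HoxD cluster, which carries much of the limb patterning in the embryo, was nearly silent. Its summed FPKM was 2.59, 1.56 and 1.14 in OE, 2.78 from the library labelled Ctrl 1, and 0.623 and 0.709 from Ctrl 2 and Ctrl 3, and no member passed the filter for testing. Most of the sum came from Hoxd8, at 2.04, 0.947 and 0.677 FPKM in OE, 1.87 from the library labelled Ctrl 1, and 0.448 and 0.497 from Ctrl 2 and Ctrl 3. Hoxd9, a gene of the upper limb segment, stood at 0.174 to 0.236 FPKM in OE, 0.401 from the library labelled Ctrl 1, and 0.109 and 0.106 from Ctrl 2 and Ctrl 3. Hoxd3 reached 0.432 FPKM, and its exons overlap those of Hoxd4 and of the antisense transcript Hoxd3os1. Hoxd10 held 3, 0 and 5 steps in OE, 1 from the library labelled Ctrl 1, and 1 and 0 from Ctrl 2 and Ctrl 3, or 10 in all 6 libraries. Hoxd13, the main gene of digit patterning, held 7 steps in all, 5 of them in the library labelled Ctrl 1. Hoxd1 was above 0 only in the library labelled Ctrl 1, at 0.0142 FPKM. Hoxd11 and Hoxd12 were listed at 0 in all 6 libraries, so no change in them could be detected at this depth. A listed 0 can also be a failed estimate.

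Along the paralogue numbers, the summed level was lower at paralogue 11 than at paralogues 9 and 10, and lowest at paralogues 12 and 13. Paralogues 9 and 10 together, with 6 measured members, summed to 18.2, 13.2 and 11.1 FPKM in OE, 16.3 from the library labelled Ctrl 1, and 10.4 and 8.71 from Ctrl 2 and Ctrl 3. Paralogue 11, with 3 members, summed to 1.02 to 2.08 FPKM in OE, 1.93 from the library labelled Ctrl 1, and 0.590 and 0.335 from Ctrl 2 and Ctrl 3. Paralogues 12 and 13, with 6 members, summed to at most 0.317 FPKM in any library. Among paralogue 10 genes the levels were uneven, with Hoxa10 and Hoxc10 at means of 2.75 and 2.32 FPKM and Hoxd10 at 0.0253. Among paralogue 9 genes Hoxa9 stood at a mean of 7.46 FPKM, against 0.216 for Hoxb9 and 0.208 for Hoxd9. Hoxa11 and Hoxc11, at means of 0.581 and 0.635 FPKM, were above Hoxb9, Hoxd9 and Hoxd10, so the lower sum did not hold gene by gene.

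Each textbook group of Hox genes, limb or blood, held some genes that were lowest in Ctrl 2 and Ctrl 3 and some that were not. Of 10 limb skeletal genes (Hoxa11, Hoxa13, Hoxc9 to Hoxc11 and Hoxd9 to Hoxd13), 9 had a row. Of these, 7 stayed below 1 FPKM in all libraries, so only Hoxc10 and Hoxa11 reached that level in any. Hoxc11 never reached 1 FPKM but had a higher mean than Hoxa11, at 0.635 against 0.581 FPKM. Of 9 blood-cell genes (Hoxa4 to Hoxa7 and Hoxb2 to Hoxb6), 5 had a row. Ctrl 2 and Ctrl 3 were the lowest pair of libraries for 17 of the 32 Hox genes, against 17.7% of the 19649 genes above 0 in any library. By group these were 5 of 9 limb skeletal genes, 2 of 5 blood-cell genes (Hoxb2 and Hoxb6), 1 of the 2 genes placed in both groups (Hoxa10, and not Hoxa9), and 9 of 16 other Hox genes. By cluster they were 7 of 8 HoxC genes, 5 of 8 HoxA, 3 of 8 HoxD and 2 of 8 HoxB genes. Hoxd11 and Hoxd12, at 0 in all libraries, are among the limb skeletal and HoxD genes counted and could not show the order. The blood-cell genes Hoxa4, Hoxa7 and Hoxb4 did not show it. The division by this order was noticed in the data and is a description. Hoxa7, Hoxa9, Hoxb4 and Hoxb8 were picked after their values were seen, as the ones whose highest library was under 2 times the lowest. Of the summed FPKM of the 32 measured Hox genes, they made up 35.3% to 40.7% in OE, 40.2% from the library labelled Ctrl 1, and 69.5% and 68.0% from Ctrl 2 and Ctrl 3.

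Markers of bone, cartilage and muscle were also mostly lowest in Ctrl 2 and Ctrl 3, and neutrophil markers were not. For comparison with the counts below, 17.7% of genes above 0 in any library had their 2 lowest values there. The osteoblast list, with all 12 members present, summed to 4279 to 6886 FPKM in OE, 6004 from the library labelled Ctrl 1, and 465.2 and 379 from Ctrl 2 and Ctrl 3, and 11 of the 12 were lowest in Ctrl 2 and Ctrl 3. Bglap, osteocalcin, stood at 1891 to 3254 FPKM in OE, 2552 from the library labelled Ctrl 1, and 91.8 and 58.8 from Ctrl 2 and Ctrl 3. Of the osteocyte list 4 of 6 showed that order, and Pdpn was listed at 0. For cartilage this held for 10 of 10, with a summed level of 360.3 to 662 FPKM in OE, 432 from the library labelled Ctrl 1, and 19.6 and 26.4 from Ctrl 2 and Ctrl 3. For periosteum and tendon it held for 8 of 9, with sums of 88.1 to 183 FPKM in OE, 176 from the library labelled Ctrl 1, and 23.5 and 27.5 from Ctrl 2 and Ctrl 3. For skeletal muscle it held for 8 of 8 with a row, with sums of 836 to 1083 FPKM in OE, 958 from the library labelled Ctrl 1, and 162 and 247 from Ctrl 2 and Ctrl 3. By mean level the highest members of these lists were Bglap and Spp1 (osteoblast), Dmp1 and Mepe (osteocyte), Col2a1 and Col11a1 (cartilage), Postn and Prg4 (periosteum and tendon) and Tnnt3 and Ckm (muscle). Neutrophil markers, 11 of 11 present and with none at 0, summed to 59698 to 167721 FPKM in OE and 104619 to 143784 in Ctrl, led by S100a8 and S100a9, and 0 of the 11 showed that order. The stem and progenitor list, 12 of 12 present, summed to 119 to 157 FPKM in OE, 118 from the library labelled Ctrl 1, and 155 and 157 from Ctrl 2 and Ctrl 3, with the order shown by 2 of the 12 and Myb and Erg as its highest members. B-cell markers summed to 507 FPKM in OE 3 and 55.8 to 118 elsewhere, with 5 of 8 in that order. Erythroid markers showed it for 0 of 8 and marrow stroma markers for 1 of 7. The highest members were Cd79a and Cd79b (B cell), Slc4a1 and Alas2 (erythroid) and Cxcl12 and Vcam1 (stroma). In bulk tissue, fewer cells of a type and less RNA per cell cannot be told apart, and the part of cell makeup in the Hox values was not tested.

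**Figure D3:**
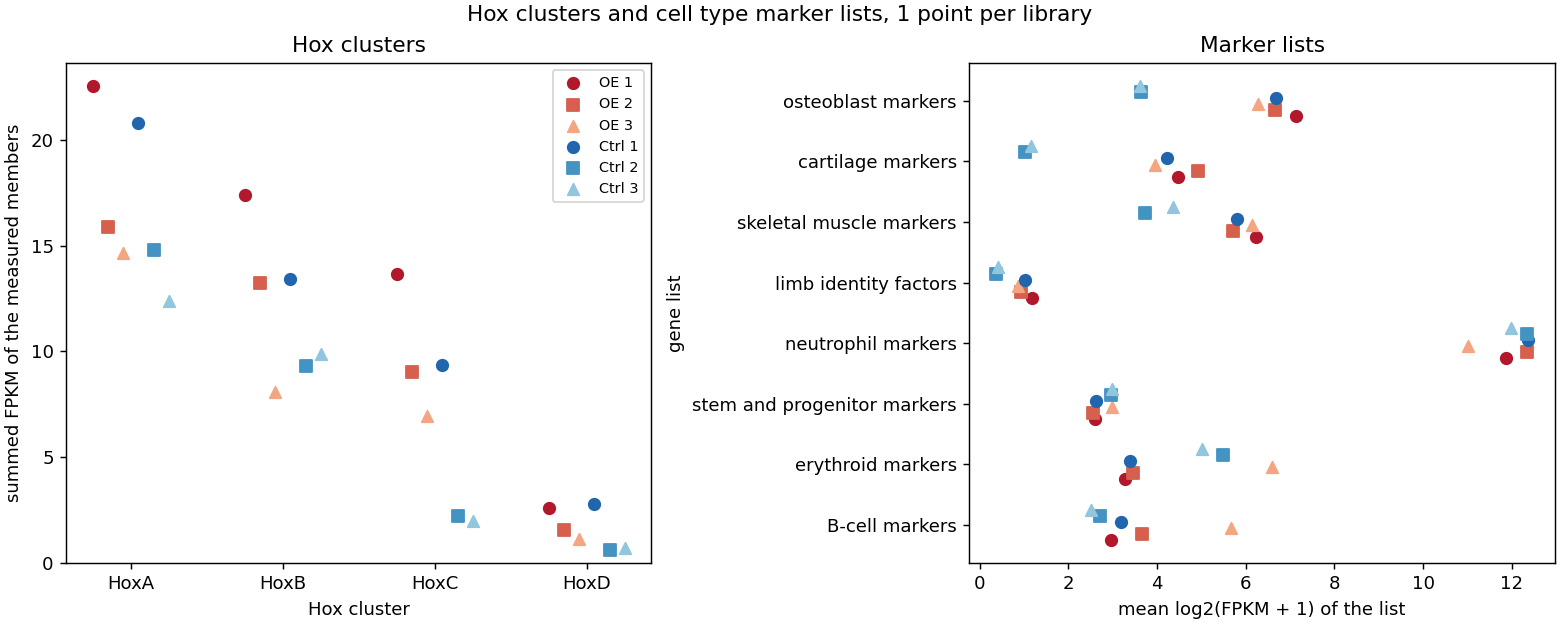
Left, summed FPKM of the measured members of each Hox cluster, and right, mean log2(FPKM + 1) of 8 gene lists, 1 point per library with red shades for OE and blue shades for Ctrl. The HoxC sums of 2.21 and 1.97 in Ctrl 2 and Ctrl 3 sit apart from the other 4 libraries, as do their osteoblast, cartilage, muscle and limb identity levels.

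Between OE and Ctrl no Hox gene passed the test. The filter of 1 FPKM in at least 3 libraries was passed by 9 members, and limma called 0 of them at an adjusted p of 0.05, where it called 0.0% of the 12177 genes tested. At an unadjusted p under 0.05 there was 1 of the 9, Hoxc10, against 8.2% of all genes tested, and limma without a variance trend also gave 0 calls and 1 gene at that level. The log2(FPKM + 1) scale makes changes of low genes look smaller than they are. On it, Hoxc10 differed by 0.93 (SE 0.37, adjusted p = 0.554 by limma). Hoxb2 differed by 0.93 (SE 0.49, limma adjusted p = 0.561), Hoxc6 by 0.90 (SE 0.40), Hoxc8 by 0.69 (SE 0.35), Hoxa10 by 0.65 (SE 0.39) and Hoxa2 by 0.45 (SE 0.23). These 6 had higher means in OE, while their Ctrl values were spread widely, as for Hoxb2, with an OE mean of 4.45 ± 1.98 FPKM and a Ctrl mean of 2.13 ± 2.13 (SD, n = 3 each). The differences of Hoxa9 (-0.19, SE 0.19), Hoxb4 (-0.19, SE 0.20) and Hoxa7 (-0.05, SE 0.16) were about the size of their standard errors or smaller. With no filter, 30 members could be tested and 0 passed by limma, where 0.0% of 19649 genes passed. At an unadjusted p under 0.05 there was 1, against 7.49% of genes, namely Hoxb1 (unadjusted p = 0.031, adjusted p = 0.599 by limma). Over all 32 members the median difference was 0.10, with 20 positive, 10 negative and 2 at 0, against a median of 0.00011 over the genes above 0 in any library. With 1 library left out, this median was lowest at 0.037, when OE 1 was removed, and highest at 0.14, when the library labelled Ctrl 1 was.

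Leaving out the library labelled Ctrl 1 changed these calls. Limma then called 3 of the 9 tested Hox genes higher in OE, where it called 4.9% of the 12177 genes, and 4.25% higher. Of the 9, Hoxb2, Hoxc6, Hoxc8 and Hoxc10 were below 1 FPKM in both Ctrl 2 and Ctrl 3, so without the library labelled Ctrl 1 these 4 met the filter through the OE libraries alone, and the count is a description. The genes called were Hoxc10, with a difference of 1.33 (SE 0.25, limma adjusted p = 0.0361), Hoxc6, with 1.33 (SE 0.26, limma adjusted p = 0.0404), and Hoxa10, with 1.10 (SE 0.19, limma adjusted p = 0.0312). In FPKM the OE mean was then 4.99 times the mean of Ctrl 2 and Ctrl 3 for Hoxc10, 6.06 times for Hoxc6 and 3.29 times for Hoxa10. Hoxb2, at 4.96 times, and Hoxc8, at 4.52 times, did not pass (limma adjusted p = 0.0651 and 0.0944), nor did Hoxa2 at 1.94 times (limma adjusted p = 0.155). The ratios for Hoxa9, Hoxb4 and Hoxa7 were 0.913, 0.870 and 0.969, with limma adjusted p from 0.721 to 0.938. With OE 3 left out as well, limma called 5 of the 9 higher, the same 3 with Hoxb2 and Hoxc8, against 7.92% of genes called higher, and 4 of those 5 are the genes that met the filter only through libraries in which they were high. With no filter and without the library labelled Ctrl 1, a combination added after the data were seen, 0 of 29 Hox genes passed by limma, against 1.22% of genes, while 13 were at an unadjusted p under 0.05, against 16.6% of genes. With the filter and without the library labelled Ctrl 1 alone, 11 of 12 osteoblast genes, 2 of 5 tested osteocyte genes and 8 of 10 cartilage genes were called higher as well. So were 5 of 8 tested periosteum and tendon genes and 6 of 8 muscle genes, against 4.25% of all tested genes. Several genes of these lists, among them Col10a1 and Acan, were also below 1 FPKM in both Ctrl 2 and Ctrl 3. Such genes met the filter only through libraries in which they were high, so these counts too are a description. The part of these tissues in the Hox calls was not tested.

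**Figure D4:**
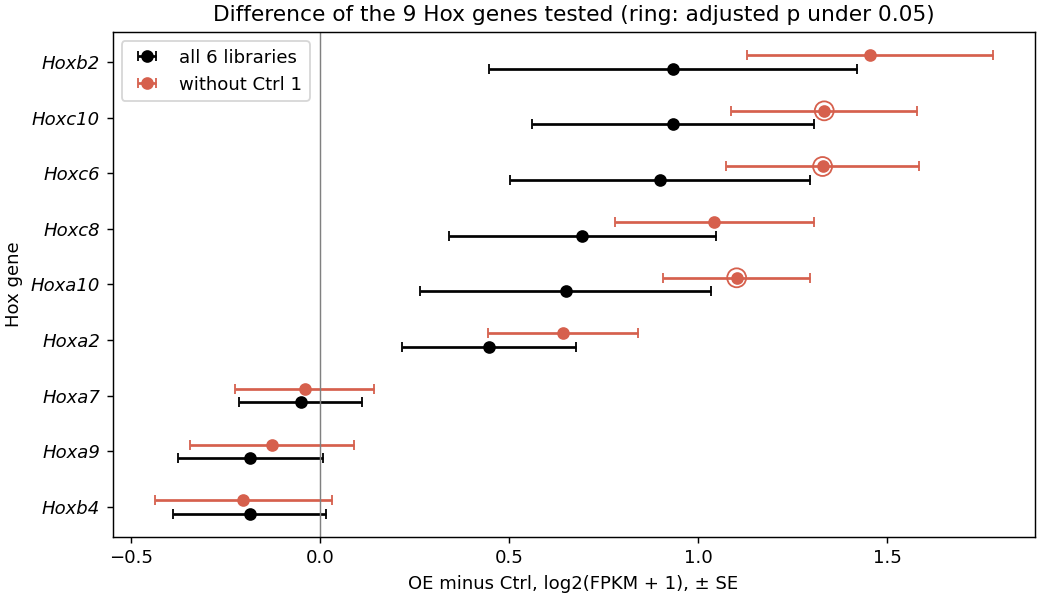
OE minus Ctrl on the log2(FPKM + 1) scale with its standard error for the 9 Hox genes tested, in black with all 6 libraries and in red without the library labelled Ctrl 1; a ring marks an adjusted p under 0.05 by limma. Rings stand on Hoxa10, Hoxc6 and Hoxc10 without that library only, and Hoxa7, Hoxa9 and Hoxb4 lie at or just below 0 in both.

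Hox proteins bind DNA with cofactors of the TALE homeodomain class, which are also homeodomain factors. All 9 cofactor genes had a row and 8 were tested, with a median difference of 0.05, 5 positive and 3 negative, and 0 passed limma with or without the library labelled Ctrl 1. Pbx2 was the most abundant, at 178, 225 and 132 FPKM in OE, 286 from the library labelled Ctrl 1, and 287 and 238.5 from Ctrl 2 and Ctrl 3. Pknox1 stood at a mean of 9.63 FPKM. Meis3 was the 1 cofactor gene of 9 with Ctrl 2 and Ctrl 3 below the other libraries, against 17.7% of genes above 0 in any library. It stood at 1.30 and 1.33 FPKM there, against 2.81 to 4.37 over the OE libraries and 3.66 for the library labelled Ctrl 1. Meis1, the partner of Hoxa9 in progenitor cells, stood at 2.45, 2.38 and 4.57 FPKM over OE and 2.28, 3.42 and 3.07 over Ctrl. Meis3 was named beside the fixed rule, as was Meis1, after the values were seen.

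Transcription factors of limb identity and limb mesenchyme were mostly lowest in Ctrl 2 and Ctrl 3 as well. Of 20 listed, all had a row, and 17 had their 2 lowest values in Ctrl 2 and Ctrl 3, against 17.7% of genes above 0 in any library. Only 6 of the 20 passed the filter for testing, and several of the 17 lay near the floor, such as Sall4, at no more than 0.0402 FPKM. The highest were Twist1, at 10.6 to 16.4 FPKM in OE, 13.9 from the library labelled Ctrl 1, and 1.29 and 1.36 from Ctrl 2 and Ctrl 3, then Tbx2 at a mean of 8.54 and Shox2 at 6.72. Limma called 0 of the 6 tested with all libraries and 4 of the 6 without the library labelled Ctrl 1, where 4.25% of all tested genes were called higher. The genes called were Twist1, Tbx2, Shox2 and Prrx1, with limma adjusted p from 0.00295 to 0.0386. Msx1 and Pitx1, tested and not called, were below 1 FPKM in both Ctrl 2 and Ctrl 3. They met the filter only through libraries in which they were high, so this count too is a description. Pitx1, which specifies hindlimb identity, was present at 0.964 to 1.91 FPKM in OE, 1.96 from the library labelled Ctrl 1, and 0.415 and 0.527 from Ctrl 2 and Ctrl 3. Tbx5, a forelimb gene, reached at most 0.0359 FPKM, and Tbx4 of the same list reached at most 0.260. Pitx1, Tbx4 and Tbx5 were named beside the fixed rule. Regulators of Hox chromatin, among them Polycomb and trithorax genes, were measured for 27 of 27, led by Ctcf, Ezh2 and Phc2 at means of 37.0, 35.6 and 29.5 FPKM. Their median difference was 0.01, with 14 positive and 13 negative, 2 of the 27 showed the low values in Ctrl 2 and Ctrl 3, and 0 passed limma. The Cdx genes, which act upstream of Hox genes in the early embryo, reached at most 0.0652 FPKM. None of the 16 listed noncoding transcripts of the clusters, among them Hotair and Hottip, matched a row, and they were not analysed here.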

How the data were processed

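RNA of 6 libraries was sequenced as paired ends. Sample titles gave each library's group and number. The submitters' processing notes name TopHat2, Cufflinks and DESeq with mm10, with no roles or versions. The annotation and the strand setting were not given in the sources used here. What the authors deposited is FPKM, as the column header says, without counts. FPKM depends on the other genes of a library, so abundant genes lower the rest. Of 22824 rows, 21606 carry an Ensembl identifier and 21172 matched a symbol in GENCODE M21 (GRCm38). Relative depth came from ratios of values below 0.1 FPKM between libraries.

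Limma 3.58.1 (R 4.3.3, trended eBayes) was fitted to log2(FPKM + 1) of 12177 genes that reached 1 FPKM in 3 or more libraries, with Benjamini-Hochberg adjustment over all of them and a threshold of 0.05. Because no counts are held, no count test was run. The fit was tested on simulated data with the spread of each gene. With all 6 libraries it called 50% of the genes changed by 1 log2 unit, so changes of that size can be missed. It also called 8 unchanged genes. Tables and plots used Python 3.11.15 with pandas 2.3.3 and matplotlib 3.10.9.

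The members and lists were chosen with earlier results of these data known. Members at 1 FPKM in 3 libraries or 2 FPKM in any are named with full values. Of the other lists the highest members are named, 3 for gene lists and 2 for marker lists. Values of 2 genes that the rule would name are not reported here. Alternatives were trimmed-mean scaling (30% trim), no filter or 5 FPKM, a pseudocount of 0.1, no trend, a replicate block and leaving out libraries.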

Additional observations from a re-analysis of the deposited data

How the results depend on the processing

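The count of Hox genes called was 0 under trimmed-mean scaling, no filter, a filter of 5 FPKM (which leaves 2 Hox genes), a pseudocount of 0.1 and limma without trend. Leaving out 1 library in turn gave 0 to 3 Hox genes and 0 to 597 genes in all, and both upper values came without the library labelled Ctrl 1. Without the libraries labelled Ctrl 1 and OE 3, limma called 5 Hox genes (Hoxa10, Hoxb2, Hoxc6, Hoxc8 and Hoxc10), where 7.92% of genes were called higher, and 1388 genes in all. Of these Hox genes, Hoxb2, Hoxc6, Hoxc8 and Hoxc10 met the filter only through libraries in which they were high, so the counts of 3 and 5 are descriptions. Without Ctrl 1 and with no filter it called 0 Hox genes and 232 genes. With the replicate number as a block 0 Hox genes and 0 genes in all were called. Same-numbered libraries had correlations of 0.442, 0.0866 and 0.311 in their deviations from the group means, and OE 3 correlated best with Ctrl 2, so the numbers are not shown to pair the libraries.

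The sign of small differences turned in a few settings. Hoxa7 moved from -0.05 to 0.00016 with trimmed-mean scaling, 0.042 without OE 3 (range over single left-out libraries -0.16 to 0.042) and 0.051 without both Ctrl 1 and OE 3. Hoxa9 came to 0.014 without both, and Hoxb4 to 0.012 without OE 3 (range over single left-out libraries -0.36 to 0.012). Without Ctrl 1 and with no filter, Hoxa4 came to 0.13, Hoxc12 to 0.014 and Hoxd13 to 0.011. The 6 Hox genes with positive differences stayed positive in every setting run that tested them.

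The median difference over a group rests on many values near 0. For limb skeletal genes it was 0.04, and it was 0.31 with a pseudocount of 0.1, 0.93 with a filter of 1 FPKM (1 gene left), 0.12 without both Ctrl 1 and OE 3, and 0.0080 to 0.11 when 1 library was left out. For the other Hox genes it went from 0.17 to 0.54 with the pseudocount and 0.69 with the filter of 1 FPKM. For all Hox genes it went from 0.10 to 0.45 with the pseudocount, 0.65 with the filter of 1 FPKM, and -0.19 with the filter of 5 FPKM, which leaves Hoxa9 and Hoxb4. For the pair placed in both groups it was -0.19 with that filter, which leaves Hoxa9. The blood-cell median was -0.02 and took both signs, from -0.19 with a filter of 5 FPKM to 0.22 without both Ctrl 1 and OE 3. With 1 library left out, the median ran from 0.037 to 0.14 for all Hox genes, 0.072 to 0.27 for the other Hox genes, 0.062 to 0.49 for the pair in both groups and -0.12 to 0.13 for the blood-cell genes.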
